A study of Drosophila melanogaster with 24 samples.

Results

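Embryos of *brat* mutant females were compared with *w1118* embryos at 0 to 1.5 h post-egglaying, the first of the 4 collection windows of a series of 24 microarray samples. All 3 *brat* mutant and all 3 *w1118* samples of this window were used, 6 samples in all. The *brat* mutant embryos had *bratfs1*/*Df(2L)TE37C-7* mothers. *bratfs1* is a missense allele in the NHL domain, the part of the protein that contacts RNA, and leaves the gene able to make mRNA. *Df(2L)TE37C-7* is a deficiency that removes 1 copy of *brat* and of genes around it, and its extent is not given in the sources used here. These females were mated to brothers that mostly carried *bratfs1* or the deficiency over the balancer *CyO*, so the embryos of a collection differed in their own genotype while their mothers shared one. The *w1118* flies carry a mutation in the eye colour gene *white* and served as the wild type. Each sample was total RNA of a pool of whole embryos, so that fewer cells of a type and less RNA per cell cannot be told apart. Values were log2 after the authors' RMA with quantile normalization of all 24 samples, and all rows of a gene symbol were averaged. Of 13633 genes with values, 5717 were tested, namely those with at least 1 row above the mean of all rows in at least 1 of the 8 groups of genotype and time.

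In the first hours a *Drosophila* embryo is a syncytium of rapidly dividing nuclei that runs on mRNAs its mother put into the egg. Its own genome is switched on in stages, at first for a few genes of sex determination, cellularization and patterning, and then for many more, while the maternal mRNAs are cleared. Brain Tumor (BRAT) is a maternal TRIM-NHL protein that binds mRNAs and represses them. It is best known for acting with Nanos and Pumilio on *hunchback* mRNA in the posterior of the embryo, which allows the abdomen to form. A gene measured here as higher in *brat* mutant embryos can therefore be one whose mRNA is maternal, zygotic or both.

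The *brat* samples were less uniform than the *w1118* samples. Across the tested genes Pearson's correlation was 0.958 to 0.962 between *brat* samples and 0.968 for each pair of *w1118* samples. Replicate 2 of the *brat* mutant stood closer to *w1118* than the others did, with correlations of 0.942 to 0.947 with the *w1118* samples, against 0.905 to 0.919 for *brat* replicates 1 and 3. This replicate was also the only *brat* sample labelled with Cy5, while 2 of the 3 *w1118* samples were. Counts without it are therefore given for the totals and for lists in which they differed by more than 1.5 times. All 12 marker mRNAs of the early embryo, such as *bcd*, *nos* and *osk*, were above the mean of all rows in both genotypes, and 3 of them (*gammaTub37C*, *pgc* and *vas*) were lower and 1 (*twe*) higher in *brat* mutant embryos. No yolk protein, eggshell or antimicrobial peptide gene passed the filter.

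With limma at an FDR of 5%, 281 genes (4.92% of those tested) were higher and 223 (3.9%) were lower in *brat* mutant than in *w1118* embryos, together 8.82%. Lists of zygotic genes of patterning and neurogenesis held 38 of the genes that rose and 0 of those that fell, and of 96 maternal regulators 2 rose and 6 fell, a share near that of all genes. Of the genes that rose, 176 were at least 2-fold higher, and 189 were not above the mean of all rows in *w1118* embryos at this time. Of those that fell, 73 were at least 2-fold lower, and 91 were not above that mean in *brat* mutant embryos. A gene could pass the filter through any 1 group, so these counts depend on the filter and are given as a description. In each of the 504 genes the 3 *brat* samples lay entirely on one side of the 3 *w1118* samples. Among all tested genes the 2 groups did so in 29.2%, and with 3 samples in each group the smallest p that an exact permutation test allows is 0.1. The median log2 fold change was 1.12 for the genes that rose and −0.86 for those that fell, against −0.03 for all genes tested. *P5CDh1* (−0.79, adjusted p = 0.0493) and *CG31301* (0.67, adjusted p = 0.0496) lay just inside the threshold. *mRpL23* (−0.69, adjusted p = 0.0502) and *E2f2* (−0.70, adjusted p = 0.0502) lay just outside it.

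**Figure D1:**
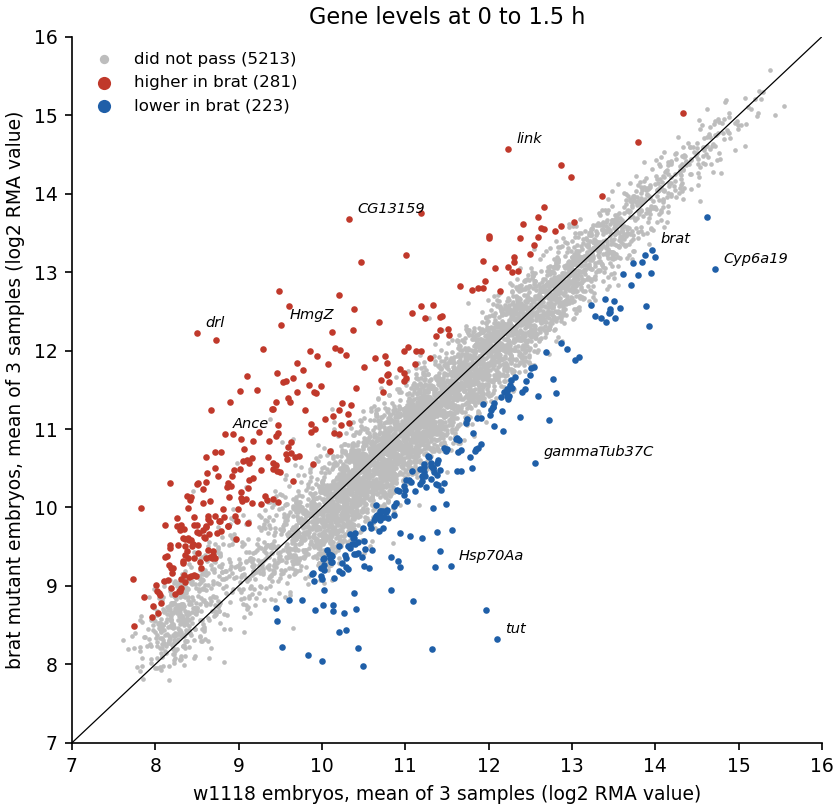
Mean log2 value of each tested gene in the 3 *brat* mutant samples (vertical) and in the 3 *w1118* samples (horizontal) at 0 to 1.5 h. Points above the diagonal are higher in *brat* mutant embryos, where the 281 genes that rose lie, and the 223 that fell lie below it.

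How many genes passed depended on single samples. Without *brat* replicate 2, the count was 311 higher and 309 lower. It was 175 and 99 without *brat* replicate 1, and 169 and 95 without *brat* replicate 3. Without *w1118* replicates 1, 2 and 3 in turn, 202, 171 and 162 genes were higher and 107, 94 and 93 were lower. In all 6 of these leave-one-out fits, 133 of the genes that rose and 61 of those that fell passed. In the genes that rose the median difference from the *w1118* mean was 1.19, 0.92 and 1.23 in *brat* replicates 1, 2 and 3, and in the genes that fell it was −0.97, −0.75 and −0.95. Replicate 2 was the *brat* sample nearest to *w1118* in 183 of the genes that rose and 124 of those that fell. Centring each sample on its own median gave 339 genes higher and 168 lower. With dye as a covariate 209 were higher and 130 lower. The sign of all 504 was the same within the Cy3 and within the Cy5 samples. Groups that do not overlap must give this, so it is no separate check on the dye.

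*brat* itself had values of 13.19, 13.40 and 13.27 in *brat* mutant embryos and 13.85, 14.24 and 13.79 in *w1118* embryos. Every mutant sample was lower, by 0.67 on the log2 scale on average (standard error 0.18, adjusted p = 0.0457). The call was lost in each of the 6 leave-one-out fits, in which the adjusted p was between 0.051 and 0.136, and with dye as a covariate (0.0669). The missense allele is able to make mRNA, so its presence cannot be read from the level of *brat* mRNA. The deficiency removes 1 copy of *brat* in the mothers, and whether this lowered the level was not tested. *hb*, whose maternal mRNA BRAT represses, was at 13.49, 13.68 and 13.84 in *brat* mutant and 12.88, 13.04 and 13.39 in *w1118* embryos. These groups did not overlap either, but the difference of 0.57 (standard error 0.19, adjusted p = 0.0942) did not pass. The row of *hb* was not split into maternal and zygotic transcripts.

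The genes next to *brat* included the one with the largest increase of all that passed. *gammaTub37C*, the maternal gamma-tubulin that nucleates microtubules at the centrosomes of the early embryo, was at 11.05, 10.48 and 10.18 in *brat* mutant embryos, against 12.48, 12.61 and 12.58 in *w1118* embryos. All *brat* samples lay more than a full log2 unit below all *w1118* samples, and on average the difference was −1.99 (standard error 0.22, adjusted p = 0.000657). *pigeon*, the following gene, was at 9.20, 9.36 and 9.12 in *brat* mutant embryos and 10.39, 10.58 and 10.73 in *w1118* embryos. *drl*, the gene after it, encodes the Ryk-family receptor Derailed, which binds Wnt5 and guides axons. It was at 12.52, 11.99 and 12.17 in *brat* mutant embryos but at 8.27, 8.78 and 8.46 in *w1118* embryos. With a log2 fold change of 3.72 (standard error 0.20, adjusted p = 8.8e-06), *drl* rose more than any other gene that passed. Its neighbour *dnt*, a related receptor, had a log2 fold change of 0.56 that did not pass (adjusted p = 0.121), and *Wnt5* one of 0.22 (adjusted p = 0.643).

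Over the 10 tested genes on each side of *brat*, in the order of the RefSeq table of the Release 6 assembly, 3 were lower, 1 was higher and 12 of 20 had a negative change, with a median of −0.11. The third gene that fell was *AsnRS*, an asparaginyl-tRNA synthetase (11.13, 11.14 and 11.10 in *brat* mutant and 11.59, 11.82 and 11.80 in *w1118* embryos), whose call was lost in all 6 leave-one-out fits. *Top2*, *swm*, *RanGAP* and *Rpn3*, all expressed in both genotypes, had log2 fold changes between −0.25 and 0.26. Which of these genes the deficiency removes, and which alleles the *bratfs1* chromosome carries besides, was not tested. On the whole arm 2L, 64 of 998 tested genes (6.41%) were higher and 48 (4.81%) lower, against 4.92% and 3.9% of all genes.

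**Figure D2:**
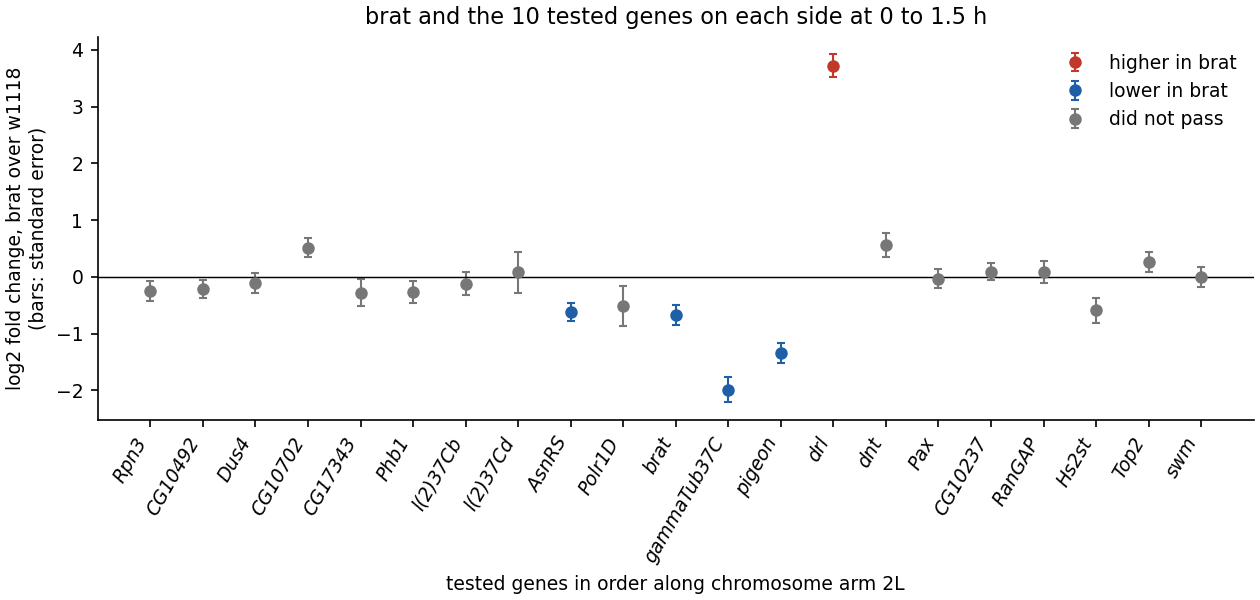
Log2 fold change, *brat* mutant over *w1118*, of *brat* and the 10 tested genes on each side of it on chromosome arm 2L, in gene order, with standard errors as bars. *gammaTub37C* (−1.99), *pigeon* (−1.34) and *drl* (3.72), the 3 genes that follow *brat*, stand apart from the others.

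Many zygotic patterning genes rose and none was called lower. Taken over 9 lists (gap, pair-rule, segment polarity, Hox, dorsal ectoderm and neuroectoderm, mesoderm, proneural and Bearded family, cellularization and other early zygotic genes), 38 of 93 tested genes (40.9%) were higher and 0 lower, against 4.92% and 3.9% of all genes. With SAM, 43 were higher and 0 lower, and 0 had an unadjusted p under 0.05 in the lower direction. A positive change was seen in 89 of the 93, and their median log2 fold change was 0.65. Without *brat* replicate 2, 44 were higher, 0 were lower and the median was 0.79, and 19 passed in every leave-one-out fit. Leaving out any of the other 5 samples gave 20 to 26 higher and 0 lower. The 12 marker mRNAs of the early embryo had a median of −0.22, with 5 positive and 7 negative changes. Of these, 3 were lower and 1 higher (4 and 1 with SAM), against 2 and 0 without *brat* replicate 2. The part of these mRNAs in the result was not tested. At this time 38 of the 93 were above the mean of all rows in *brat* mutant embryos, and 13 were in *w1118* embryos. Their mean value was 10.03, 9.70 and 10.11 in *brat* replicates 1, 2 and 3, against 9.24, 9.04 and 9.13 in *w1118* replicates 1, 2 and 3. It was 11.09 ± 0.11 (SD, n = 3) in *w1118* embryos at 1.5 to 3 h, above every sample of the first window. Most of the 93 genes were low in *w1118* embryos of the first window and could pass the filter through another group. Such genes have little room to fall, so the count of 0 lower is partly set in advance.

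**Figure D3:**
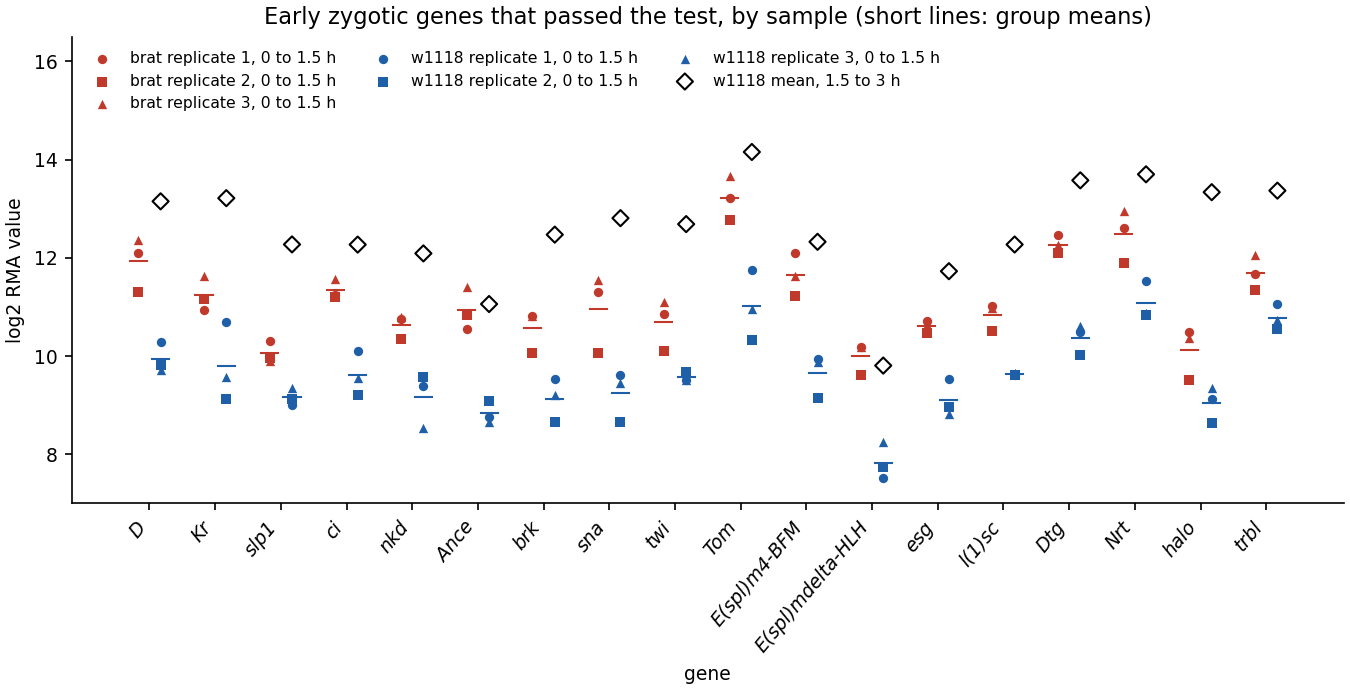
Log2 values of a selection of the early zygotic genes that passed the test, each point a sample. *brat* mutant samples are on the left of each gene, *w1118* samples on its right and group means are short lines. The 3 *brat* samples lie above the 3 *w1118* samples in each gene. In the genes drawn, the *w1118* mean at 1.5 to 3 h (open diamonds) lies above all of them except in *Ance* and *E(spl)mdelta-HLH*. In some genes that passed and are not drawn, among them *ase*, *E(spl)mgamma-HLH* and *zfh1*, that mean lay below all 3 *brat* samples.

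Of the gap genes, which divide the embryo into broad regions, 3 of 13 were higher. *Dichaete* (*D*), a Sox protein, was at 12.11, 11.31 and 12.37 in *brat* mutant embryos and 10.28, 9.81 and 9.72 in *w1118* embryos, a log2 fold change of 1.99 (standard error 0.27, adjusted p = 0.00189). *Kr*, the zinc finger protein of the central region, was at 10.93, 11.16 and 11.63 in *brat* mutant and 10.68, 9.12 and 9.57 in *w1118* embryos, where replicate 1 came close to the mutant samples. Its log2 fold change was 1.45 (adjusted p = 0.033) and passed in 2 of the 6 leave-one-out fits. *knrl* was 0.64 higher. The gap gene *gt* had values of 10.24, 9.58 and 10.67 in *brat* mutant and 9.60, 8.78 and 10.17 in *w1118* embryos, and *tll* and *kni* had log2 fold changes of 0.60 and −0.10; none of these passed. The *w1118* samples of *gt* ranged over more than the difference between the groups. With 1 sample left out at a time, 1 to 3 gap genes were higher, and *D* was the only one in every fit.

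Among pair-rule genes, which set up the segments in double steps, *slp1* and *Ten-m* rose, and these were 2 of the 9 tested, against 0 to 3 with 1 sample left out. *slp1*, a forkhead protein, was at 10.31, 9.96 and 9.90 in *brat* mutant and 9.01, 9.13 and 9.34 in *w1118* embryos. *Ten-m*, a teneurin of the cell surface, was at 11.67, 11.09 and 11.80 in *brat* mutant and 10.67, 10.42 and 10.13 in *w1118* embryos. The log2 fold changes of *ftz* (0.53) and *eve* (0.27) did not pass, and the samples of both genotypes overlapped.

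Of the segment polarity genes, 3 of 7 were higher, and all 3 passed in every leave-one-out fit. *ci*, the transcription factor at the end of the Hedgehog pathway, was at 11.25, 11.19 and 11.58 in *brat* mutant and 10.10, 9.20 and 9.55 in *w1118* embryos (log2 fold change 1.72, adjusted p = 0.00189). *nkd*, a feedback inhibitor of Wingless, rose by 1.46 and *wg*, which encodes the Wingless ligand itself, by 0.97. *en*, whose protein marks the posterior of each segment, had a log2 fold change of 0.21 (adjusted p = 0.69). Of the Hox genes, *Abd-B* was 1.01 and *Ubx* 0.67 higher, and the other 3 tested (*Dfd*, *Antp* and *abd-A*) had changes between 0.41 and 0.61 that did not pass. The *Ubx* call was lost in all 6 leave-one-out fits, so that 1 Hox gene was left in each of them, and *Abd-B* passed in all 6.

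Genes of the dorsoventral axis rose on both sides of it. *Ance*, a peptidase gene that is switched on dorsally by BMP signals, was at 10.56, 10.84 and 11.41 in *brat* mutant and 8.77, 9.09 and 8.65 in *w1118* embryos, a log2 fold change of 2.10 (standard error 0.23, adjusted p = 0.000655). *ush*, another BMP target, was 0.89 higher and *tld*, a protease that frees BMP ligands from their inhibitor, 0.63. *brk*, the repressor of BMP targets in the neuroectoderm, was at 10.82, 10.06 and 10.81 in *brat* mutant and 9.54, 8.65 and 9.20 in *w1118* embryos (log2 fold change 1.43, adjusted p = 0.011). These were the 4 genes that passed of 15 tested, all of which had a positive change. With 1 sample left out, 6 were higher without *brat* replicate 2 and 2 or 3 in the other fits, and *tld* passed in none. *zen*, among the first dorsal genes to be transcribed, was at 8.63, 8.26 and 8.39 in *brat* mutant and 8.68, 8.31 and 8.17 in *w1118* embryos, and these samples were interleaved.

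On the ventral side, 6 of 11 mesoderm genes were higher. *sna*, the repressor that defines the mesoderm, was at 11.29, 10.07 and 11.54 in *brat* mutant and 9.62, 8.66 and 9.45 in *w1118* embryos. Replicate 2 of both genotypes was the lowest, and the mean difference was 1.72 (standard error 0.37, adjusted p = 0.0195). *twi*, which activates *sna*, was at 10.85, 10.11 and 11.10 in *brat* mutant and 9.51, 9.67 and 9.52 in *w1118* embryos. The FGF receptor gene *htl* and its signal carrier *stumps* rose by 0.78 and 1.22, and *CadN*, the cadherin that mesoderm cells take up, by 1.15. *zfh1* was the sixth, at 0.63. Only *CadN* and *stumps* passed in all 6 leave-one-out fits, while *sna* passed in 2, *twi* and *htl* in 1 and *zfh1* in 0. The count was 5 without *brat* replicate 2 and 2 or 3 in the other fits.

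The proneural and Bearded family genes had the highest share of all lists shown, with 13 of 19 higher (68.4%), 0 lower and a median log2 fold change of 1.18. They act around Notch: proneural proteins let a cell become neural, Bearded proteins block the ubiquitin ligase Neuralized, and the *E(spl)* genes are the targets through which Notch represses the neural fate. *Tom*, a Bearded family gene, was at 13.23, 12.77 and 13.67 in *brat* mutant and 11.75, 10.33 and 10.95 in *w1118* embryos (log2 fold change 2.21, standard error 0.34, adjusted p = 0.0036). *E(spl)m4-BFM*, of the same family, was at 12.10, 11.23 and 11.62 in *brat* mutant and 9.93, 9.15 and 9.87 in *w1118* embryos. *Brd*, *BobA* and *E(spl)malpha-BFM* were 1.04 to 1.18 higher, while *Ocho* (0.90, adjusted p = 0.0888) and *E(spl)m2-BFM* (0.14) did not pass. *BobA* has a near-identical copy in the genome, and its signal may hold both.

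Of the *E(spl)* repressors, 4 of the 5 tested rose. *E(spl)mdelta-HLH* was at 10.18, 9.62 and 10.19 in *brat* mutant and 7.51, 7.73 and 8.25 in *w1118* embryos, a log2 fold change of 2.16 (standard error 0.24, adjusted p = 0.000642). The changes of *E(spl)mgamma-HLH*, *E(spl)m5-HLH* and *E(spl)m7-HLH* lay between 1.71 and 1.85, and that of *E(spl)m3-HLH* was 0.16 and did not pass. Among the proneural genes, *l(1)sc* was at 11.02, 10.52 and 10.99 in *brat* mutant and 9.62, 9.62 and 9.65 in *w1118* embryos. *ase* and *sc* were 1.48 and 0.70 higher, and *esg*, a Snail relative of neuroblasts, 1.50. *ac* (0.21) and *wor* (0.07) did not pass. With 1 sample left out, 9 to 13 genes of the list were higher, and 9 were in every fit.

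Of the zygotic cellularization genes, which build membranes around the nuclei and slow the cell cycle, 2 of 8 were higher, and all 8 had a positive change with a median of 0.87. *trbl*, an inhibitor of mitosis, was at 11.68, 11.34 and 12.06 in *brat* mutant and 11.06, 10.55 and 10.73 in *w1118* embryos. *halo*, which directs lipid droplet transport, was at 10.48, 9.51 and 10.36 in *brat* mutant and 9.12, 8.63 and 9.36 in *w1118* embryos. *slam* showed how *brat* replicate 2 bore on this list, with 12.64, 11.38 and 12.76 in *brat* mutant and 11.49, 11.54 and 11.31 in *w1118* embryos. Without that replicate, 6 of the 8 genes passed, against 1 without *w1118* replicate 1 and 0 in each of the other 4 leave-one-out fits. *trbl* passed in 2 of the 6 and *halo* in 1. Of the X-counting and sex determination genes only *emc* (0.80) and *sc* were higher among 13 tested, the median was 0.09, and both passed without *w1118* replicate 3 but neither did in the other 5 leave-one-out fits. Of the remaining early zygotic genes *Dtg* (12.45, 12.09 and 12.26 in *brat* mutant and 10.48, 10.01 and 10.62 in *w1118* embryos), *Nrt* (1.41) and the forkhead gene *fkh* (0.94) rose, and *Dtg* alone did so in all 6 leave-one-out fits. Of these 6 genes, 4 were higher without *brat* replicate 2 and 1 or 2 in the other fits.

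Of 6 genome activators, transcription factors and a co-activator that act early on zygotic genes, 1 passed. *zld*, which encodes the pioneer factor Zelda, was at 14.11, 14.15 and 14.57 in *brat* mutant and 14.02, 14.16 and 14.16 in *w1118* embryos, which overlapped (log2 fold change 0.16, standard error 0.18, adjusted p = 0.634). Of the other 5, only *grh*, a later-acting factor of epithelia, was higher, by 1.25 (adjusted p = 0.00568), with 9.70, 9.11 and 9.76 in *brat* mutant and 8.36, 8.09 and 8.35 in *w1118* embryos.

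**Figure D4:**
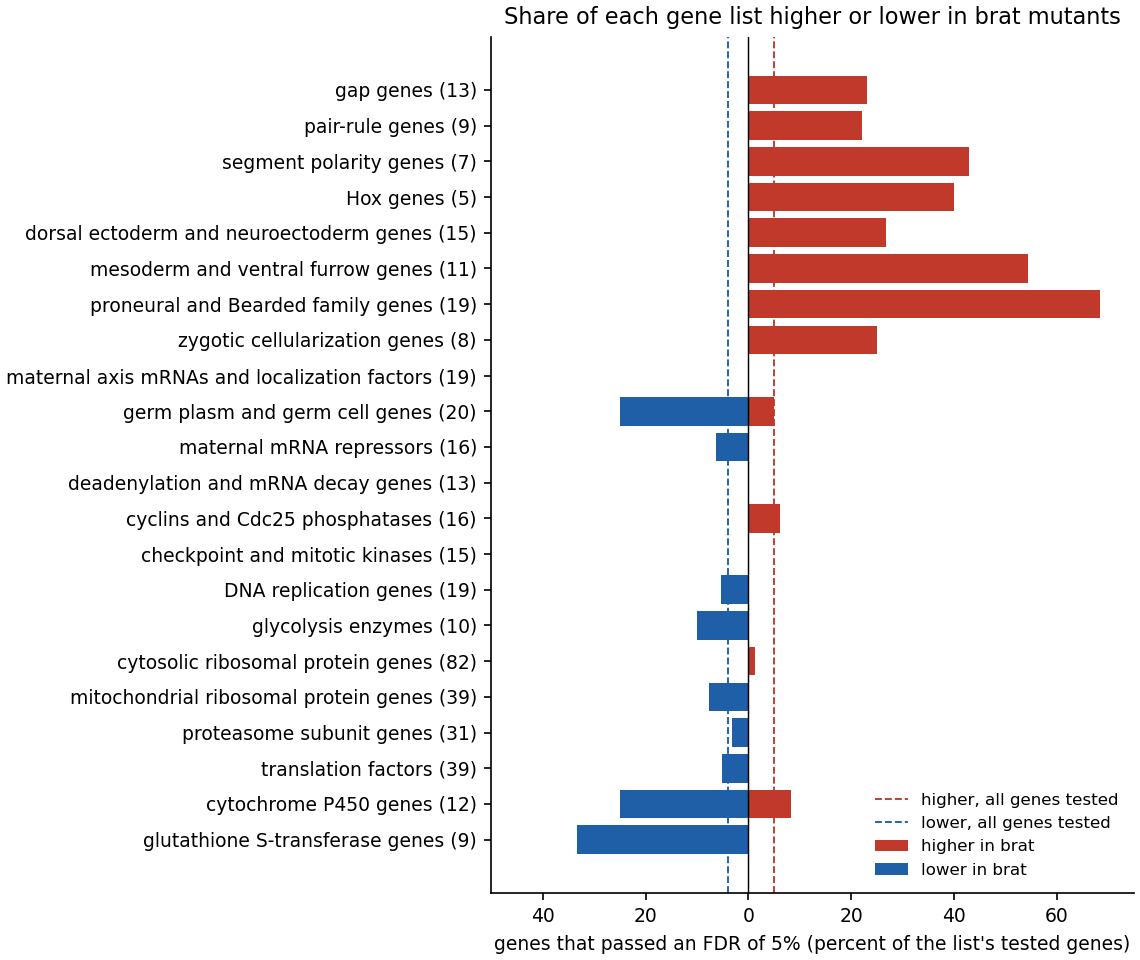
Percent of the tested genes of each list that were higher (bars to the right) or lower (bars to the left) in *brat* mutant than in *w1118* embryos at an FDR of 5%, with the number tested in parentheses and the shares among all 5717 genes as dashed lines. The zygotic patterning lists drawn reach 22.2 to 68.4% higher and 0% lower, and the lists of maternal regulators 0 to 6.25% higher and 0 to 25% lower. The list of other early zygotic genes is not drawn.

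Maternal regulators passed the test about as often as all genes did. Over 6 lists of maternal regulators (axis, germ plasm, repressors, mRNA decay, cyclins with Cdc25 phosphatases, and checkpoint kinases) 2 of 96 genes were higher (2.08%) and 6 lower (6.25%), together 8.33% against 8.82% of all genes, with a median of −0.10. Without *brat* replicate 2, 1 was higher and 6 were lower, and in the other leave-one-out fits 0 to 2 were higher and 1 to 3 lower. Their mean value was 12.37, 12.49 and 12.40 in the *brat* samples and 12.53, 12.56 and 12.56 in the *w1118* samples. None of the 19 axis genes passed with limma, 4 had an unadjusted p under 0.05 and 1 passed with SAM, the permutation-based test of the study's methods. None of the 13 deadenylation and decay genes passed with limma or with SAM, and 0 had an unadjusted p under 0.05. *bcd*, the anterior determinant, was at 12.75, 12.28 and 12.53 in *brat* mutant and 12.16, 12.46 and 12.16 in *w1118* embryos, and *osk*, the posterior one, at 14.36, 14.54 and 14.31 in *brat* mutant and 14.50, 14.30 and 14.32 in *w1118* embryos. Both pairs of groups overlapped. *nos*, which works with BRAT and Pumilio on *hb*, had a log2 fold change of −0.41 (adjusted p = 0.146), and *pum* one of −0.07. Among the mRNA repressors only *brat* itself passed, although 14 of 16 had a negative change, and *smg*, a main trigger of maternal mRNA clearance, was at 0.10 (adjusted p = 0.774).

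Among the lists of maternal regulators, germ plasm and germ cell genes held most of those that fell, 5 of 20 (25%, against 3.9% of all genes). With 1 higher (5%, against 4.92%), their median was −0.26. *tut*, known from the testis, where its protein works with Bam and Bgcn to stop germ cell divisions, was at 8.32, 8.42 and 8.23 in *brat* mutant embryos and 11.97, 11.89 and 12.44 in *w1118* embryos. With a log2 fold change of −3.78 (standard error 0.19, adjusted p = 8.8e-06) it fell more than any other gene that passed. *bam* was at 10.49, 11.21 and 10.92 in *brat* mutant and 11.11, 10.83 and 10.36 in *w1118* embryos and did not pass. *tud*, the scaffold of polar granules, was at 12.36, 12.83 and 12.06 in *brat* mutant and 13.76, 13.51 and 13.27 in *w1118* embryos (log2 fold change −1.10, adjusted p = 0.0155). The piRNA factor *qin* was lower by 1.25, *pgc*, which keeps germ cells transcriptionally silent, by 0.83 and the helicase *vas* by 0.81. *vret*, another piRNA factor, was 0.75 higher. Apart from *tut*, each of these calls was lost in 3 or more of the 6 leave-one-out fits.

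Of the cyclins and their regulators, *twe*, the maternal Cdc25 phosphatase whose loss stops the early divisions, was the only 1 of 16 that passed. It was at 13.36, 13.71 and 13.68 in *brat* mutant and 12.81, 13.01 and 12.78 in *w1118* embryos, a log2 fold change of 0.72 (adjusted p = 0.031) that passed in 1 of the 6 leave-one-out fits. *CycB* was at 14.60, 14.70 and 15.14 in *brat* mutant and 14.70, 14.91 and 14.96 in *w1118* embryos. None of 15 checkpoint and mitotic kinase genes passed with limma, although 2 had an unadjusted p under 0.05 and 1 passed with SAM. Of 19 replication genes *RnrL*, the large subunit of ribonucleotide reductase, was lower in all samples (13.72, 13.80 and 13.57 in *brat* mutant and 14.67, 14.80 and 14.41 in *w1118* embryos), and the call held in all 6 leave-one-out fits.

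In the EGF receptor pathway, which patterns the ventral neuroectoderm, 3 of 16 genes were higher. The receptor *Egfr* was at 10.56, 9.97 and 10.67 in *brat* mutant and 8.997, 8.69 and 9.08 in *w1118* embryos (log2 fold change 1.48, adjusted p = 0.00284), its ligand *spi* was 1.18 higher and its nuclear effector *pnt* 0.75. The kinases of the pathway, *Raf*, *Dsor1* and *rl*, were between −0.26 and 0.10 and did not pass. In the Notch pathway 1 of 13 was higher, *neur*, the ligase that Bearded proteins block, at 12.14, 11.61 and 12.22 in *brat* mutant and 11.24, 11.24 and 11.09 in *w1118* embryos. *Dl* and *N* did not pass. The *neur* call was kept only without *brat* replicate 2. Of the 9 tested genes of the maternal Toll pathway only *pip* passed, at 0.62, and its call was lost in all 6 leave-one-out fits. In the BMP pathway *brk* was the only 1 of 9, against 3 without *brat* replicate 2. In JAK/STAT signalling none of 5 passed with limma or SAM, 1 had an unadjusted p under 0.05, and 1 passed without *brat* replicate 2.

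Of the chromatin genes, only *HmgZ* changed among 13 tested. It encodes a high mobility group protein and was at 12.61, 12.04 and 12.32 in *brat* mutant and 9.80, 8.79 and 9.95 in *w1118* embryos, a log2 fold change of 2.81 (standard error 0.29, adjusted p = 0.000616). Its relative *HmgD* (0.22) and the embryonic linker histone *BigH1* (0.00) did not pass. None of 16 Polycomb group genes passed with limma or SAM, and 7 had an unadjusted p under 0.05.

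Some metabolic and stress genes were lower. Of 9 tested glutathione S-transferase genes, which act in detoxification, *GstD1*, *GstD3* and *GstE6* fell (33.3%, against 3.9% of all genes). *GstD3* passed in all 6 leave-one-out fits, *GstD1* in 2 and *GstE6* in 1, and the count was 4 without *brat* replicate 2 and 1 or 2 in the other fits. *GstD1* was at 12.11, 12.75 and 12.74 in *brat* mutant and 13.14, 13.59 and 13.64 in *w1118* embryos. *Cyp6a19*, a cytochrome P450 gene, was at 13.07, 13.28 and 12.77 in *brat* mutant and 14.64, 14.78 and 14.73 in *w1118* embryos, a log2 fold change of −1.68 (standard error 0.18, adjusted p = 0.000616). *Cyp6a20*, its relative, had the opposite sign, with 10.93, 10.66 and 10.32 in *brat* mutant and 8.24, 8.64 and 8.94 in *w1118* embryos. *Cyp12d1-p* and *Cyp12d1-d* were lower by 1.71 and 1.97, but they are near-identical copies and cannot be counted as separate genes here. The same holds for *Hsp70Aa* and *Hsp70Ba*, which fell by 2.29 and 1.43. The call of *Hsp70Aa* held in all 6 leave-one-out fits and that of *Hsp70Ba* in 1. The copies *Hsp70Bb*, *Hsp70Bbb* and *Hsp70Bc*, picked out from outside the list, had log2 fold changes of −1.59, −1.85 and −1.62. Their calls held in all 6 fits, but they cannot be counted as separate genes here either. Without *brat* replicate 2, 1 of the 12 tested heat shock and chaperone genes was lower, against 2 with all samples. *Hsp83*, the main maternal heat shock mRNA, had a log2 fold change of −0.37 (adjusted p = 0.221).

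All 10 tested glycolysis genes had a negative change, with a median of −0.32, but only *Pgk* passed. It was at 9.90, 9.71 and 9.60 in *brat* mutant and 10.41, 10.49 and 10.56 in *w1118* embryos. *Eno* was at 11.15, 11.30 and 11.94 in *brat* mutant and 11.88, 12.36 and 12.39 in *w1118* embryos (adjusted p = 0.0829). Of 82 ribosomal protein genes only *RpL7A* passed (0.69, kept in 1 of the 6 leave-one-out fits), and their median was 0.04. Of 39 mitochondrial ones *mRpL3*, *mRpL13* and *mRpL47* fell, by 0.76 to 0.86 (0 to 4 fell with 1 sample left out), of 39 translation factors *eIF1* and *eIF2Bdelta* fell (0 to 2), and of 31 proteasome genes *Rpn7* fell, by 1.16.

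The 8 genes with the highest log2 fold changes were *drl*, *CG12011* (3.41), *CG13159* (3.36), *CG31775* (3.27), *Cys* (2.96), *HmgZ*, *CG9628* (2.73) and *CR10102* (2.66), and each of them passed in all 6 leave-one-out fits. *CG12011* was at 11.62, 12.30 and 12.47 in *brat* mutant embryos and 8.53, 8.89 and 8.76 in *w1118* embryos. *CG31775* was at 12.66, 12.60 and 13.01 in *brat* mutant embryos and 9.47, 9.34 and 9.64 in *w1118* embryos. *Cys*, a cystatin-like inhibitor of cysteine proteases, was at 12.28, 12.20 and 13.22 in *brat* mutant embryos and 9.93, 9.13 and 9.75 in *w1118* embryos. In these 3 genes the groups lay more than 2 log2 units apart. At the other end stood *tut*, *hpRNA:CR18854* (−3.28), *CG10928* (−3.12), *CG11034* (−2.52), *CG4842* (−2.29), *Hsp70Aa*, *CG13032* (−2.22) and *CG13101* (−2.12). *hpRNA:CR18854*, a hairpin RNA of the kind that yields endogenous small interfering RNAs, was at 8.95, 8.32 and 8.79 in *brat* mutant and 11.65, 12.12 and 12.14 in *w1118* embryos. The other hairpin RNA tested, *hpRNA:CR32207*, was also lower, with 12.41, 12.75 and 12.53 in *brat* mutant and 13.96, 13.72 and 14.00 in *w1118* embryos.

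A few more of the genes that rose were picked out after their values had been seen and form no list. The laminin chains *LanA* and *LanB1*, subunits of the basement membrane, were 2.44 and 2.07 higher. *LanA* was at 12.09, 10.53 and 11.40 in *brat* mutant and 8.74, 8.85 and 9.11 in *w1118* embryos. *Ama*, an immunoglobulin-domain ligand of Neurotactin, was at 11.86, 11.34 and 11.93 in *brat* mutant and 9.78, 9.22 and 9.37 in *w1118* embryos, and Neurotactin itself is the product of *Nrt*. The axon guidance receptor *robo2* and the innexin *Inx3* were each 2.15 higher. The homeodomain gene *hth* and the trunk gene *tsh*, whose products act together with Hox proteins, were 1.90 and 1.99 higher.

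The same comparison in the next window, 1.5 to 3 h, used other samples. There 231 genes (4.04%) were higher and 204 (3.57%) lower over the same 5717 genes. Of the 281 genes that rose at 0 to 1.5 h, 262 had a positive change at 1.5 to 3 h, 99 (35.2%) were again higher and 2 were lower. Of the 223 that fell, 181 had a negative change, 45 (20.2%) were again lower and 2 were higher. The median change in the later window was 0.72 for the first set and −0.42 for the second, while that of all genes was −0.04. Both sets were chosen by their change in the first window, which by itself makes their medians there larger in size. *drl* (2.72), *CG12011* (3.17), *CG31775* (3.01), *tut* (−2.59) and *hpRNA:CR18854* (−3.28) were among those far apart in both. Other genes were close to 0, such as *brk* (0.02), *Brd* (0.02) and *Kr* (0.07) among those that rose and *tud* and *pigeon* (both −0.02) among those that fell. A test of the difference between the windows, as an interaction term in 1 fit of all 24 samples, passed for 86 genes (1.5%), of which 26 were among those that rose at 0 to 1.5 h and 12 among those that fell.

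**Figure D5:**
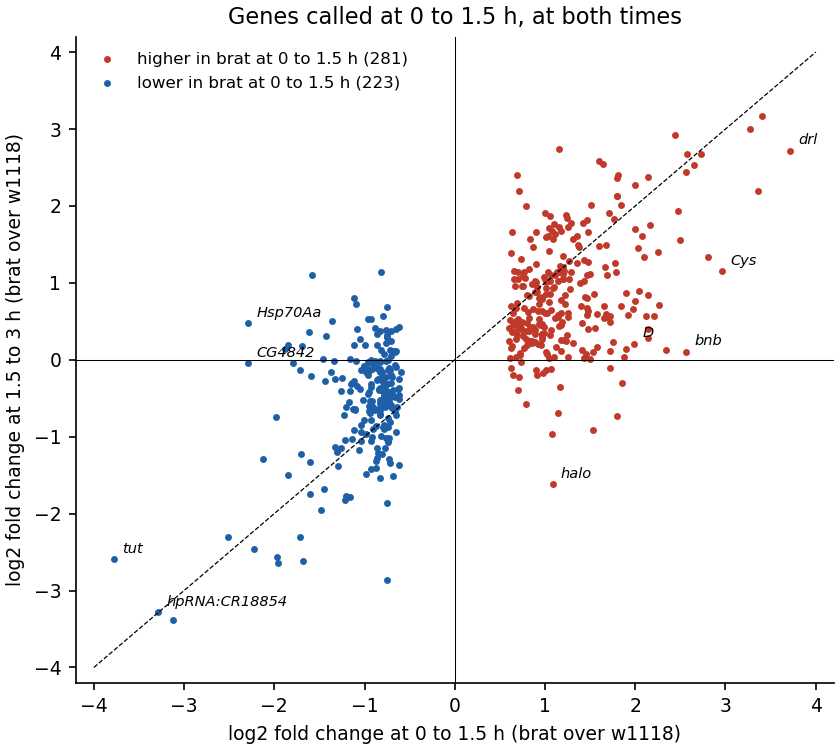
Log2 fold change, *brat* mutant over *w1118*, at 0 to 1.5 h (horizontal) and at 1.5 to 3 h (vertical) of the 281 genes that rose and the 223 that fell at 0 to 1.5 h, with equality as a dashed line. Most points keep their sign, while *halo* (1.08 and −1.62) crossed it.

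The course of the genes in the wild type was taken from *w1118* samples outside the comparison, at 1.5 to 3 h and at 4.5 to 6 h. Among 838 genes at least 2-fold up between these windows, 137 (16.3%) were higher in *brat* mutant embryos at 0 to 1.5 h and 30 (3.58%) were lower. Among 867 genes at least 2-fold down, 19 (2.19%) were higher and 50 (5.77%) were lower. Among the 4012 genes in between, 125 (3.12%) were higher and 143 (3.56%) lower. The shares over all genes tested were 4.92% and 3.9%. In *w1118* embryos at 0 to 1.5 h, 410 of the 838, 778 of the 867 and 3523 of the 4012 were above the mean of all rows. Genes low at that time have little room to fall, so the shares of lower genes are not directly comparable between these groups. In 148 of the 281 genes that rose, the *w1118* mean at 1.5 to 3 h was at or above the *brat* mean at 0 to 1.5 h. In 132 of the 223 that fell it was at or below it. The matching shares over all tested genes were not taken, so these counts have no background beside them. Averaged over all tested genes, the *w1118* value at 1.5 to 3 h was 11.045 and the *brat* value at 0 to 1.5 h was 11.133. *D* was at 11.93 ± 0.55 in *brat* mutant and 9.94 ± 0.30 in *w1118* embryos at 0 to 1.5 h, and at 13.15 in *w1118* embryos at 1.5 to 3 h (SD, n = 3). *drl* was at 12.23 ± 0.27 in *brat* mutant embryos, 8.51 ± 0.26 in *w1118* embryos and 9.14 in *w1118* embryos of the later window, so that it lay above both. How the ages of the embryos within the window were spread in each genotype was not tested.

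Markers of later embryos were low in both genotypes. Of 57 muscle, nerve and cuticle genes on the array, 17 passed the filter, 1 was above the mean of all rows in each genotype, and 1 was higher, the neuronal gene *elav* (9.42, 9.17 and 9.97 in *brat* mutant and 8.51, 8.00 and 8.01 in *w1118* embryos). Without *brat* replicate 2, 3 were higher and 1 was lower, and the median was 0.41, against 0.20 with all samples. Their mean value was 8.69 to 8.92 in the *brat* samples and 8.28 to 8.88 in the *w1118* samples. *Mhc*, the muscle myosin, was at 8.70, 8.27 and 8.74 in *brat* mutant and 8.71, 8.53 and 8.44 in *w1118* embryos. The part of older embryos in the result was not tested.

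The mRNAs that the study found associated with BRAT or with PUM by immunoprecipitation were looked up by name only. Over all genes tested, 4.92% were higher and 3.9% lower. Of 961 tested BRAT-associated genes, 30 (3.12%) were higher and 55 (5.72%) lower, with a median of −0.08. Of 538 tested PUM-associated genes, 41 (7.62%) were higher and 15 (2.79%) lower, with a median of −0.02. With 1 sample left out, 17 to 33 BRAT-associated genes were higher and 18 to 72 lower, and 24 to 43 PUM-associated genes were higher and 3 to 21 lower, the highest count each time without *brat* replicate 2. *brat*, *tut* and *HmgZ* were on the BRAT list. Calls were spread over the chromosomes, with 4.56% of the tested genes higher and 4.47% lower on 2R, 5.71% and 3.03% on 3L, 4.31% and 3.79% on 3R, 3.17% and 4.19% on X, and 4 genes higher and 0 lower of 53 on the fourth.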

How the data were processed

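Total RNA of pooled *brat* mutant and *w1118* embryos, 3 biological replicates per genotype and window, was converted to double-stranded cDNA, labelled with Cy3 or Cy5 and hybridized to custom NimbleGen arrays. The authors extracted signals with NimbleScan, ran RMA with quantile normalization on the whole series of 24 in ArrayStar, and deposited log2 values, 1 for each transcript in each sample. The pairs of samples on each array, the background correction and the transcript annotation release are not given in the sources consulted. At 0 to 1.5 h, *brat* replicates 1 and 3 and *w1118* replicate 2 carried Cy3 and the others Cy5, so dye and genotype were partly confounded. Groups, replicates and dyes came from the labels.

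Of 17775 rows, 6 held no value and 17769 were used, with values from 7.05 to 15.77 and sample medians from 8.70 to 8.83. The RefSeq gene table named 16964 rows; 493 were absent from it and 312 ambiguous, and for these the deposited name was kept. Rows of a gene were averaged. A row counted as above the mean of all rows in a group by a one-sided limma test at an FDR of 5%, after the authors' one-class filter, which left 7734 rows of 5717 genes. These were tested with limma 3.58.1 in R 4.3.3 on the 6 samples, with Benjamini-Hochberg adjustment over all of them. limma replaced the SAM of the study's methods because 3 samples against 3 leave few label assignments, and SAM with all 20 assignments was an alternative. The small number of arrays limits the precision, since intensities carry no counts. The tests were checked on simulated data.

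Members, lists and tests were chosen with earlier results of these data known. Named genes were *brat*, *zld* and *hb*, the 8 largest changes in each direction whose groups did not overlap, and up to 3 members of each list with the smallest p; other list members, and genes said to have been picked out, are named with their values. Of the named genes, 72 of 74 passed. The list of cytochrome P450 genes was corrected for a cyclophilin that its first pattern took in. RIP-Chip target lists were used for membership only. Figures were drawn with matplotlib 3.10.9. Promoter and protein sequences and motifs were not analysed here.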

Additional observations from a re-analysis of the deposited data

Results flagged for a closer look

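Of the genes named above, 15 had a *brat* effect at 0 to 1.5 h that differed from the effect at 1.5 to 3 h by the interaction term in the limma fit of all 24 samples (adjusted p under 5%). The differences below are the log2 fold change at 0 to 1.5 h minus that at 1.5 to 3 h. Most of them were named for their change in the first window, which by itself favours a larger size there. In 13 genes the earlier change was the more positive. *halo* had the largest difference, 2.70, with a log2 fold change of 1.08 in the first window and −1.62 in the second. *Cys* differed by 1.81, *D* by 1.78, *Dtg* by 1.76 and *HmgZ* by 1.48. *Inx3* differed by 1.74, *Tom* by 1.63, *esg* by 1.49 and *brk* by 1.41. *Nrt* differed by 1.28, *trbl* by 1.11 and *hth* by 1.03. *zen*, which had no call in the first window (0.04), differed by 1.88, with a log2 fold change of −1.84 in the second (adjusted p = 0.022). Of these, *D*, *Dtg*, *brk*, *Nrt* and *esg* were within 0.21 of 0 at 1.5 to 3 h, *trbl* was at −0.20, and *Cys* (1.15), *HmgZ* (1.33), *hth* (0.87), *Tom* (0.58) and *Inx3* (0.41) still had the sign of the first window. In *CG4842*, which differed by −2.25, and *GstD3*, which differed by −1.39, the lower level in *brat* mutant embryos was not seen in the second window, where their log2 fold changes were −0.04 and −0.21.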

How the results depend on the processing

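The counts of genes that rose kept within 1.5 times of 281 under every alternative other than leaving out a sample, where they ranged from 162 to 311. The counts of genes that fell did not. Against 223, they were 145 in 1 fit of all 24 samples, 130 with dye as a covariate, 122 with no filter on expression, 142 with a filter on the mean over all 24 samples and 375 with SAM, where the genes that rose numbered 276, 209, 200, 268 and 375. Leaving out a sample gave 93 to 309 genes lower. The cause was not tested, except that more genes enter the adjustment with no filter. The interaction count of 86 was 41 with no filter, 38 with only the 12 samples of both windows and 33 to 118 when a sample was left out. The fit with the replicate number as a block gave 260 genes higher and 193 lower, and 239 and 158 with dye as well. Deviations of same-numbered samples correlated at 0.15, −0.08 and −0.01. Same-numbered samples carried opposite dyes, and which samples shared an array is not given. So few weak correlations cannot show whether the numbers pair the samples. Reversal of direction was looked for only in the 74 genes named by rule, and none was found. For the 74 genes named by rule, 90 calls in all were lost and 2 gained over the alternatives that kept every sample, and 631 stayed. When a sample was left out, 139 were lost and 305 stayed. Since 72 of these genes had passed by the rule of naming or in the main fit, far more calls could be lost than gained. Counts of the lists with each sample left out were added after the data had been seen. The share of promoters with a motif was not run. Values near the array background limit what can be said of genes low in either genotype.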
